A study of Mus musculus with 82 samples.

Results

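CTCF was profiled in stembryos of 7 genotypes, and the regions described here are the CTCF sites found in every one of the 8 deposited CTCF lists. All CTCF regions on chromosomes other than chromosome 2 were merged where they overlapped by at least 1 base, which gave 77877 merged regions, and the 20609 regions (26.5%) overlapped in all 8 lists were kept. The sites were thus selected on CTCF presence, and their CTCF values are given as a description only. These 20609 regions are called constant CTCF sites below, as a name for presence in 8 lists and nothing more. The other regions were split into 32209 found in 2 to 7 lists, called variable CTCF sites, and 25059 found in a single list.

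Stembryos, also called gastruloids, are aggregates of mouse embryonic stem (mES) cells that elongate like a tail bud after a pulse of the Wnt agonist Chiron. The pulse ran from 48 h to 72 h after aggregation, so stembryos of 48 h had not yet received it. The CTCF lists came from 6 mutant lines and from wt stembryos at 72 h and 168 h after aggregation. The mutants were Del(CBS1), Del(CBS2), Del(CBS1-2) and Del(CBS1-5) at 96 h, Del(CBS4) at 120 h, which lack the named CTCF-binding sites (CBS) of the HoxD cluster, and Ins(2xCBS-d4d8) at 144 h, which carries extra CTCF sites between Hoxd4 and Hoxd8. All edits lie in HoxD on chromosome 2, which was left out, so no edit lay in any site described here. The wt cells were EmbryoMax 129/SVEV mES cells, in which picked, homozygous CRISPR/Cas9 clones were made. Del(CBS1-2) was built on Del(CBS1) cells, and the Del(CBS1-5) cells were instead derived from mouse blastocysts. Each library came from pooled stembryos, collected without selection up to 96 h. From 108 h only clearly elongating stembryos without signs of apoptosis were taken. Comparisons across these changes cannot tell the stage apart from the pulse or this selection. Each CTCF list is 1 library of 1 genotype at 1 stage, so genotype and stage cannot be told apart in them. RAD21, NIPBL, H3K27ac and PolII libraries of wt stembryos from 48 h to 168 h supplied readouts that the choice of sites did not use. H3K27me3 and CDX2 libraries of wt were read as well. Mutants supplied RAD21 in Del(CBS1) and Del(CBS1-5), H3K27ac in Del(CBS1) and Del(CBS1-2), and H3K27me3 in Del(CBS1-5).

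CTCF is a zinc-finger protein that binds a long, directional DNA motif and blocks loop extrusion by cohesin, the ring complex that draws chromatin into loops. RAD21 is the cohesin subunit that closes the ring, so a RAD21 region at a CTCF site marks where cohesin is held, and NIPBL is the factor that loads cohesin and drives extrusion. Loops tend to form between CTCF sites whose motifs point towards each other, called convergent, and during development many CTCF sites hold the same place in all tissues while others follow the cell type. H3K27ac marks active promoters and enhancers, and PolII is RNA polymerase II.

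A 20-position CTCF matrix was learnt from the 3611 CTCF regions of chromosome 1 found in 2 or more lists. Of these, 1413 were constant and 2198 variable sites. The letters at the strongest positions of the matrix read CCAGNAGAGGGC, where N is any base. Each region was searched on both strands in the 50 bases on each side of its summit, and a match was a score passed by 1% of positions 1000 bases away from CTCF sites, with a looser threshold passed by 5% of them. The sequences printed here are the reference of the strain C57BL/6J (RefSeq, GRCm38, the build named mm10), not of the 129 cells, each 60 bases long and read 5′ to 3′ along the strand of the best-scoring position, whose 20 bases are in capitals. The first 5 sequences are the best-scoring constant sites of HoxA, HoxB and HoxC and the constant sites between the imprinted genes H19 and Igf2. Cohesin was called at each of them in all 16 wt RAD21 lists.

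HoxA site at the start of Hoxa5 (chr6:52204632-52204691, minus strand): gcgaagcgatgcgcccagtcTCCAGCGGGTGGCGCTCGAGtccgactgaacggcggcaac
HoxB site near Hoxb8 (chr11:96278927-96278986, plus strand): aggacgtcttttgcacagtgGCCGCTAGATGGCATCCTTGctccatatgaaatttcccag
HoxC site near Hoxc8 (chr15:102987572-102987631, plus strand): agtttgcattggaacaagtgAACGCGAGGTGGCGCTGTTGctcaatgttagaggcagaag
First site from H19 to Igf2 (chr7:142580284-142580343, minus strand): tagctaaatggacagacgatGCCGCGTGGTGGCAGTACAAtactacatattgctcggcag
Second site from H19 to Igf2 (chr7:142610732-142610791, plus strand): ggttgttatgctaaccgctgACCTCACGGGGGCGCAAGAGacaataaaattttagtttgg

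The next 5 sequences are constant sites that stand apart in cohesin or in copy number. The Faap100 site had RAD21 only at later stages, the Zfp68 and Myh11 sites only at earlier ones, and the Ifna4 site had none at any stage. The last is a site in repeat-masked sequence whose 20 capital letters recur elsewhere in the genome.

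Site at the start of Faap100 (chr11:120378840-120378899, plus strand): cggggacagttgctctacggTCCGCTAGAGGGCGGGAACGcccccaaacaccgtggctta
Site in an exon of Zfp68 (chr5:138618511-138618570, minus strand): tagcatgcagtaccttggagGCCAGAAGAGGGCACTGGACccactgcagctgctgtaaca
Site in an intron of Myh11 (chr16:14242713-14242772, minus strand): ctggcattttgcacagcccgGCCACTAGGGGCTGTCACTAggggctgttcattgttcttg
Site near Ifna4 (chr4:88838980-88839039, minus strand): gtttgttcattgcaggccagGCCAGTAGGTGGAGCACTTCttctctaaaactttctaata
Repeat-masked site near Gm5134 (chr10:75975370-75975429, plus strand): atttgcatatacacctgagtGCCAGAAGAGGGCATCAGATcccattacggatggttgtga

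The HoxA, HoxB, Zfp68, Ifna4, Gm5134 and second H19 to Igf2 sites passed the stricter threshold, and the others only the looser one. Match scores, in log2 units, were 17.6 at the Hoxa5 start, 15.8 near Hoxb8 and 9.52 near Hoxc8. The Zfp68 site scored 25.4 and the Gm5134 site 26.2, among the highest scores of the constant sites, which reached 27.7. A high score therefore stood beside RAD21 in all 16 wt lists at Gm5134 and in only 8 of them at Zfp68. A match is a description of the letters and does not show which protein was bound.

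The CTCF lists limited the choice unequally. They held 23729 regions in Del(CBS4) to 59370 in wt at 72 h off chromosome 2, and the constant sites made up 91.2% of the Del(CBS4) list and 37.8% of the wt list at 72 h. Of the 6567 regions found in 7 lists, 5565 were missing only from Del(CBS4), 729 only from Ins(2xCBS-d4d8) and 178 only from Del(CBS1-5). A further 55 were missing only from Del(CBS2), 19 only from Del(CBS1-2) and 15 only from Del(CBS1), whereas 5 were missing only from wt at 168 h and 1 only from wt at 72 h. The boundary between 8 and 7 lists was thus mostly that of the shortest list, and without Del(CBS4) the count of constant sites was 26174.

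The choice also kept the higher CTCF regions, which is a description of the rule and was not tested. Fold enrichment is the height of a summit divided by its local background, as MACS2 gives it, and is comparable only within a list. In wt at 72 h its median was 10.6 at constant sites, 8.28 at sites of 7 lists and 5.98 at variable sites. In Del(CBS4), the shortest list, the medians were 5.47, 3.92 and 3.86. Ranked within each list, the median constant site lay between the 60.3 and 84.5 percentile, and the median site of 7 lists between the 23.4 and 72.0 percentile. Constant sites were also wider, with a median of 1076 bp against 766 bp in 7 lists and 199 bp in a single list, so readouts were counted a second time within 100 bases on each side of the CTCF summit.

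The CTCF match was found in most constant sites. On chromosomes other than chromosome 1, which had supplied the matrix, 89.0% of 19196 constant sites passed the looser threshold (95% Clopper-Pearson interval 88.6 to 89.4%), against 69.2% of variable sites and 30.3% of regions in a single list. At the stricter threshold the shares were 75.9%, 52.2% and 18.7%. The share climbed with each further list, at 50.8% for 2 lists and 84.1% for 7 lists under the looser threshold. All these intervals cover counting error only. The comparison carries no test, because the matrix was learnt from constant and variable sites and not from regions in a single list.

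Among the matches of the stricter threshold, constant sites lay mostly outside repeats. Of 15651 constant sites with such a match, 3229 (20.6%, interval 20.0 to 21.3%) had it in sequence that the reference gives as repeat-masked, against 9362 of 16802 variable sites (55.7%) and 66.8% of regions in a single list. The share was 41.1% for 7 lists, 51.8% for 6, 61.6% for 5 and between 65.1% and 66.8% for 2 to 4 lists, as the bars of masked matches by number of lists show. The drop was therefore spread over the lists from 5 to 8, with its greatest step between 7 and 8.

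The matched letters themselves were also less repetitive at constant sites. The 15651 matches were 13797 distinct 20-base sequences, and 83.9% of the sites carried one seen once among constant sites, against 57.3% among variable sites. Matches seen at least 10 times accounted for 838 constant sites (5.35%) in 29 sequences and for 4836 variable sites (28.8%) in 106 sequences. The most frequent match at constant sites, present at 154 of them on 19 chromosomes, was masked in all 154 and occurred at 897 of all 77877 regions. Of those 154 sites, 94 had RAD21 in all 16 wt lists.

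**Figure D1:**
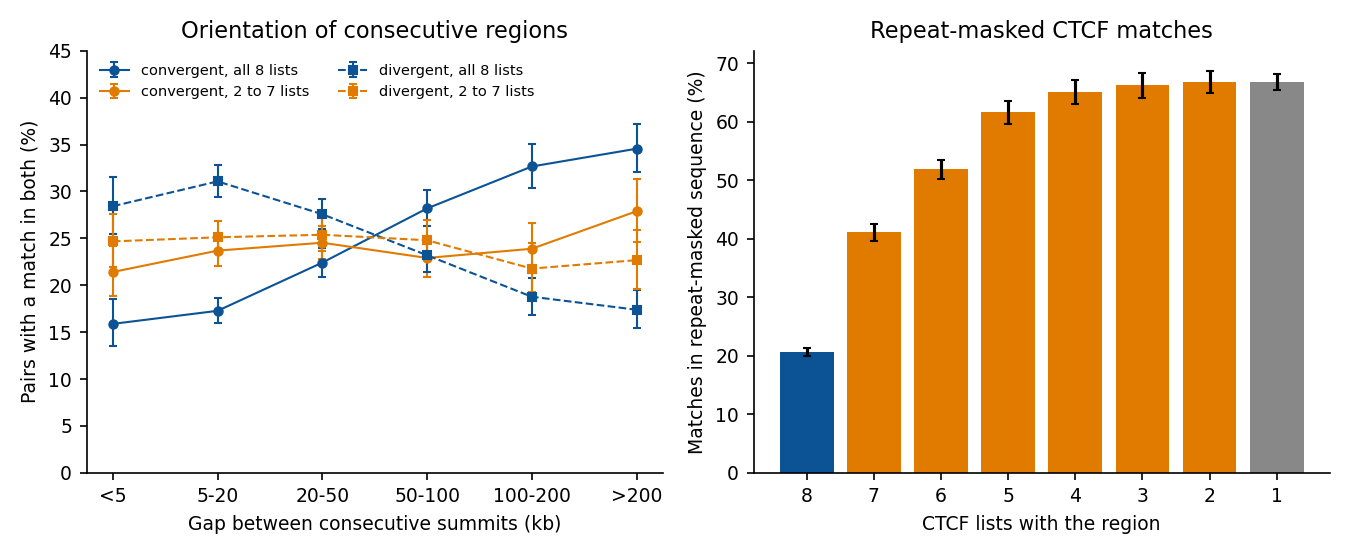
Left, percent of pairs of consecutive CTCF regions with a match in both that are convergent (circles, solid lines) or divergent (squares, dashed lines), by the gap between summits in kb, for constant sites (all 8 lists, blue) and variable sites (2 to 7 lists, orange). Right, percent of stricter-threshold matches in repeat-masked sequence by the number of CTCF lists holding the region; bars on points and columns are 95% Clopper-Pearson intervals. At constant sites the convergent share runs from 15.9% under 5 kb to 34.6% over 200 kb, and masked matches make up 20.6% in 8 lists.

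Constant sites were spaced further apart than variable ones. The median gap between consecutive constant sites was 40.5 kb, with 10% of gaps under 6.41 kb and 10% above 241 kb, and 6.88% of the 20589 gaps were under 5 kb. Variable sites, which are more numerous, had a median gap of 31.3 kb, and 11% of their gaps were under 5 kb. Gaps over 500 kb made up 3.95% of those between constant sites and 1.76% of those between variable sites.

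The orientation of neighbouring matches changed with the gap between them. Over all 11882 pairs of consecutive constant sites with a match in both, 24.4% were convergent, 25.4% divergent and 50.2% pointed the same way. Below 5 kb, however, 15.9% of pairs were convergent (13.5 to 18.5%) and 28.4% divergent (25.4 to 31.5%), and between 5 and 20 kb 17.3% and 31.1%. Above 200 kb the order was turned round, with 34.6% convergent (32.0 to 37.1%) and 17.4% divergent (15.4 to 19.5%). The 2 shares crossed between the bins of 20 to 50 kb, with 22.4% convergent, and 50 to 100 kb, with 28.2% convergent.

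Variable sites showed a narrower range over the same bins. Their convergent share was 21.4% under 5 kb (18.8 to 24.2%) and 27.9% over 200 kb (24.6 to 31.3%), and their divergent share 24.7% and 22.7%. In the bin over 200 kb the intervals of the convergent share did not overlap between constant and variable sites, and neither did those of the bins under 5 kb. Pairs that share a site are not independent, and the intervals cover counting error only.

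Constant sites lay mainly between and within genes rather than at gene starts. A promoter, here a summit within 1 kb of the start of a protein-coding transcript, held 2051 of the 20609 (9.95%, interval 9.55 to 10.4%). Exons held 1122 (5.44%), introns 7935 (38.5%) and the sequence between genes 9501 (46.1%). The promoter share was 11.7% at variable sites and 15.9% in a single list, so it was lowest at constant sites. It depended on the definition, at 16.2% within 2.5 kb and 16.3% when starts of all transcripts were counted.

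The density of constant sites differed among chromosomes. Chromosome 11 had 14.6 per Mb and chromosome 19 had 11.8 per Mb. The X chromosome had 1.37 per Mb (235 sites), and chromosome Y 0.0981 per Mb (9 sites). On X, constant sites made up 17% of the regions in 2 or more lists, against 36.5 to 42.6% on the autosomes. RAD21 overlapped 88.8 ± 8.54% of the constant sites on X (SD, 16 libraries), and in all 16 wt lists 60.9% of them.

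RAD21 was present at most constant sites in every wt library. The 1 library of 48 h had a RAD21 region at 89.8% of them. The shares were 92.1% and 79.6% in the 72 h libraries, and 84.8% and 95.9% in those of 84 h. In the 96 h libraries they were 92.1%, 94.6% and 94.9%. Replicates of the same stage thus differed by up to 12.4 percentage points.

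At 108 h the shares were 87.0% and 97.8%, and at 132 h 90.5% and 97.8%. At 144 h they were 91.1%, 96.3% and 95.4%, and the single library of 168 h had 83.8%. The highest share was found in the 132 h library with the longest list and the lowest in the 72 h library with the shortest. Across the 16 libraries the share followed the number of RAD21 regions called, which ran from 29370 to 65626 (Spearman's rho 0.92 and Pearson's r 0.90, given as a description). Read depth is not recorded in the lists, and its part in these shares was not tested.

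**Figure D2:**
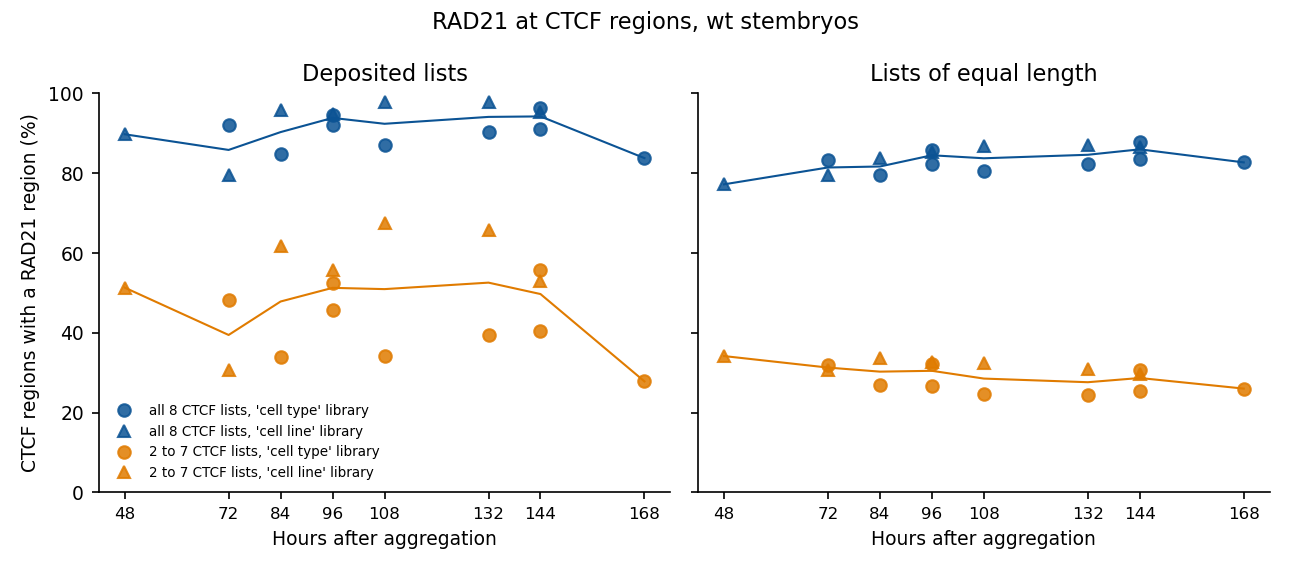
Percent of constant CTCF sites (all 8 lists, blue) and variable CTCF sites (2 to 7 lists, orange) overlapped by a RAD21 region in each wt library, against hours after aggregation. Left, deposited lists; right, each list cut to its 29370 regions of highest −log10 q; circles and triangles are libraries labelled by cell type and by cell line, lines join stage means. Every blue point lies above every orange point, from 79.6% upwards in the deposited lists.

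No trend of RAD21 with the stage passed the test in the deposited lists of all 8 stages. Over the 8 stage means the share at constant sites gave a rho of 0.29 with hours (exact permutation p 0.501, two-sided, Benjamini-Hochberg adjusted over 4 assays 0.668) and an r of −0.0041 (exact permutation p 0.992). Without the outermost stages of 48 h and 168 h, r was 0.81 (exact permutation p 0.0319), so the value rests on those stages, and without the 168 h library alone rho was 0.93 (exact permutation p adjusted 0.0270). The labels give the cells of 7 libraries under a cell line tag and of 9 under a cell type tag. Within these sets rho was 0.68 (exact permutation p 0.110) and −0.14 (exact permutation p 0.783). The cell line set had no library of 168 h and the cell type set none of 48 h. Cut to the same length, the lists overlapped 77.2% of constant sites at 48 h to 87.8% in a 144 h library. At that length rho was 0.74 over all libraries (exact permutation p adjusted 0.183), 0.89 within the cell line libraries (exact permutation p 0.0123, not adjusted) and 0.21 within the cell type libraries (exact permutation p 0.662, not adjusted).

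Constant sites had RAD21 more often than variable sites in the same library. The mean was 91.5 ± 5.34% at constant sites and 47.7 ± 12.4% at variable sites (SD, 16 libraries), a difference of 43.7 percentage points that ranged from 30.1 to 56.0 and was positive in 16 of 16 libraries. The permutation test over sign changes, with 100000 resamples and both sides counted, gave an adjusted p of 9e-05 over 3 assays. Within the summit windows, which remove the difference in width, the difference was 44.1 points.

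Counted over libraries, 14321 constant sites (69.5%) had RAD21 in all 16 wt lists. The same held for 23.8% of all 77877 regions and for 13.1% of variable sites. RAD21 was in none of the 16 lists at 161 constant sites (0.781%), against 17.7% of variable sites and 24.8% of all regions. A further 1815 constant sites had RAD21 in 15 lists and 1021 in 14, so the counts rose steeply towards the full set, as the bars of RAD21 recurrence show.

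**Figure D3:**
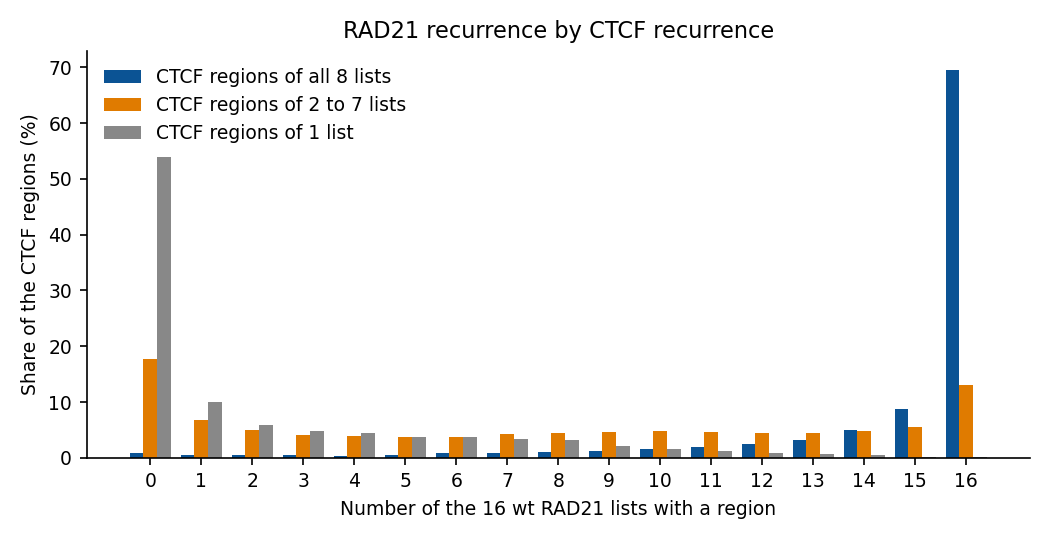
Percent of CTCF regions with a RAD21 region in 0 to 16 of the 16 wt RAD21 lists, for constant sites (all 8 CTCF lists, blue), variable sites (2 to 7 lists, orange) and regions of a single list (grey). The blue bar at 16 lists stands at 69.5% and the orange one at 13.1%, while the grey bar at 0 lists stands at 53.8%.

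Within the constant sites, RAD21 in all 16 lists varied with the match. By quartile of the match score, from lowest to highest, 58.0%, 75.1%, 76.9% and 67.9% of sites had it. The highest quartile was the one with most repeats, 51.2% of its sites being masked. Within it, masked sites had RAD21 in all lists in 55.9% of cases and sites outside repeats in 80.4%. Over all matches the shares were 57.1% in masked and 77.4% in unmasked sequence. The part that mapping of reads in repeats plays in this was not tested.

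RAD21 in all 16 lists varied with position as well. It was found at 50.2% of constant sites in promoters, 65.2% in exons, 68.1% in introns and 75.3% between genes. Promoter sites carried a match less often, 52.1% of them against 79.0% in introns and 78.6% between genes. Among sites with a match the order was the same, with RAD21 in all lists at 59.4% of promoter sites and 74.3% of sites elsewhere.

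The promoter sites were also those whose RAD21 differed most among stages, which was noticed in the data and then measured. In the 48 h library RAD21 was at 70.6% of promoter sites and 91.9% of the other constant sites, and the 72 h means were 71.8% and 87.4%. At 84 h the shares were 85.7% at promoters and 90.8% elsewhere, and at 96 h 88.4% and 94.5%. At 108 h the promoter mean was 93.3% and that elsewhere 92.3%. In the 132 h and 144 h libraries both promoter means were 95%, against 94.0% and 94.2% elsewhere, and at 168 h promoters were again lower, with 80.6% against 84.2% at other sites.

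The difference between promoter and other constant sites was thus −21.2 points at 48 h and 0.817 points at 144 h. Its rho with hours over stage means was 0.74 (exact permutation p 0.0458, two-sided, not adjusted) and its r 0.78 (exact permutation p 0.0192), or 0.84 without 48 h and 168 h (exact permutation p 0.0333). The relation held within the cell line libraries, which include none of 168 h, with a rho of 0.96 (exact permutation p 0.00278). It did not hold within the cell type libraries, which include none of 48 h, where rho was 0.29 (exact permutation p 0.556). Without the 48 h library the rho was 0.61 (exact permutation p 0.167), without replicate 2 at 84 h 0.62 (p 0.115) and without replicate 3 at 96 h 0.67 (p 0.0831). Variable sites had differences of −31.0 points at 48 h and 19.6 points at 144 h.

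The RAD21 summit lay to the 3′ side of the CTCF match at constant sites. Measured along the match strand from the middle of the 20 bases, the median RAD21 summit was 7 to 17 bases downstream in the 16 wt libraries, over 12825 to 15384 sites each, and was downstream in 57.3 to 75.3% of them. The CTCF summits of the same sites had medians between −2 and 3 bases in the 8 CTCF libraries. The 2 ranges did not overlap, with means of 10.4 ± 2.96 bases for RAD21 (SD, 16 libraries) and 1.38 ± 1.69 bases for CTCF (SD, 8 libraries). No test is given because the match was searched around the CTCF summit. The median offset was 9.33 ± 2.60 bases in cell type libraries and 11.7 ± 3.04 bases in cell line libraries. At variable sites RAD21 medians were 8 to 18 bases, so the offset was not particular to constant sites.

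**Figure D4:**
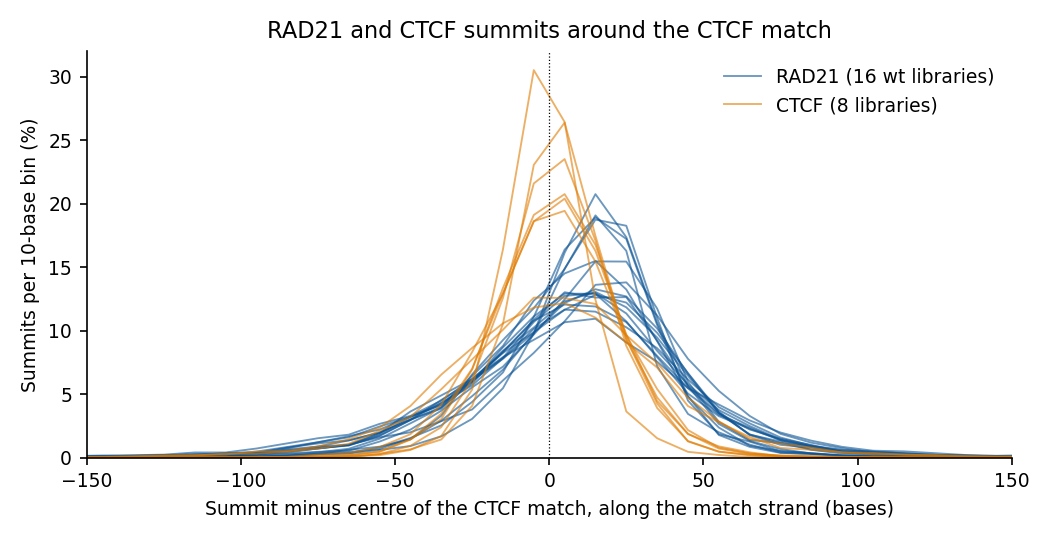
Distribution of summits around the CTCF match at constant sites, in percent of summits per 10-base bin, against the distance in bases from the middle of the match along its strand; each blue line is 1 of 16 wt RAD21 libraries and each orange line 1 of 8 CTCF libraries. The RAD21 curves peak to the right of the dotted zero line, with medians of 7 to 17 bases, while the CTCF curves have medians of −2 to 3 bases.

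NIPBL was found at a minority of constant sites in every library. In the 8 wt libraries, 1 per stage, NIPBL overlapped 2.67% of constant sites at 72 h and 2.04% at 84 h, and 30.2% of them at 96 h. For 108 h, 120 h and 132 h the shares were 12.2%, 9.02% and 9.32%, and the libraries of 144 h and 168 h gave 21.4% and 18.4%. The lists of 72 h and 84 h were also the shortest, with 6159 and 4527 regions, against 31512 at 96 h, 34851 at 168 h and 37322 at 144 h, so the highest share was not in the longest list. The rho with hours was 0.52 (exact permutation p adjusted 0.393) and r was 0.42 (exact permutation p 0.300), or 0.16 without 72 h and 168 h (exact permutation p 0.761).

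NIPBL overlapped more constant than variable sites in the 6 later libraries. The means were 13.2 ± 9.67% at constant sites and 7.63 ± 3.54% at variable sites (SD, 8 libraries), a difference of 5.53 points (exact sign-change permutation test, adjusted p 0.0313). With all lists cut to the 4527 regions of highest −log10 q, the difference was −0.252 points and constant sites were higher in 1 of 8 libraries. Without any 1 of the 6 libraries from 96 h on it was 3.62 to 6.05 points (exact permutation p adjusted 0.0625 each), the lowest without 96 h. NIPBL was in all 8 lists at 218 constant sites (1.06%, with 1.25% of all regions) and in none at 12328 (59.8%, with 75.6% of all regions).

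Constant sites with H3K27ac had NIPBL more often at every stage. Where an H3K27ac region of the same stage was present, NIPBL overlapped 13.2%, 11% and 71.0% of them in the libraries of 72 h, 84 h and 96 h. Without H3K27ac the shares were 0.245%, 0.295% and 21.8%. At 144 h the pair was 84.7% and 14.4%, and at 168 h 71.7% and 9.33%. In the 96 h library 3726 constant sites had NIPBL and no H3K27ac, and in the 144 h library 2681. Variable sites with H3K27ac also had NIPBL more often at every stage, so the relation was not particular to constant sites. Their share with H3K27ac was 22.2% at 72 h, 87.0% at 144 h and 78.2% at 168 h. It was above that of constant sites at every stage but 96 h, where it was 65.5%. Without H3K27ac, variable sites had NIPBL in 0.344% of cases at 72 h and 0.446% at 84 h, above the constant sites. At 96 h and 144 h they had it in 3.84% and 4.46%, below the constant sites. These differences were not tested.

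The H3K27ac share of constant sites was highest at 48 h and lowest at 144 h. The libraries of 48 h, 72 h, 84 h and 96 h gave 22.1%, 18.8%, 16.2% and 17.1%. Those of 108 h, 120 h and 132 h gave 14.1%, 12.5% and 12.7%, that of 144 h 9.90% and that of 168 h 14.6%. The rho with hours was −0.80 (exact permutation p 0.0138, adjusted 0.0553) and r was −0.83 (exact permutation p 0.00612, adjusted 0.0245). Without 48 h and 168 h, r was −0.96 (exact permutation p 0.00159), and without 168 h alone rho was −0.95 (exact permutation p adjusted 0.00456). The number of H3K27ac regions called moved with it, from 62254 regions at 48 h down to 22031 at 144 h, and with lists of equal length the shares lay between 9.90% and 12.2% with a rho of −0.47 (exact permutation p adjusted 0.425).

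H3K27ac overlapped constant sites more often than variable ones only when whole regions were counted. The means were 15.3 ± 3.67% and 11.4 ± 1.8% (SD, 9 libraries), a difference of 3.98 points with constant sites higher in 9 of 9 libraries (exact sign-change permutation test, adjusted p 0.00586). Within the summit windows the difference was −1.11 points, and constant sites were higher in 0 of 9 libraries (exact permutation p adjusted 0.00586). Constant regions are wider, and the summit windows are the comparison at equal width. With whole regions the difference was 1.69 points at equal list length and 1.63 points with a −log10 q of at least 5 (exact permutation p adjusted 0.00586 each).

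Most constant sites had H3K27ac at no stage, but such absence was less frequent among them than among all regions. The mark was in all 9 lists at 1438 sites (6.98%, with 7.29% of all regions) and in none at 13639 (66.2%, with 75.1% of all regions). At variable sites the same shares were 6.65% and 79.2%. Of the 1438, 70.2% were promoters. At promoter sites the mean share with H3K27ac was 65.1% and with NIPBL 46.0%, against 8.48% and 7.96% in introns. The mark was gained, with none up to 84 h and all 4 lists from 120 h, at 47 sites (0.228%, with 0.299% of all regions), and lost, with all 3 lists up to 84 h and none from 120 h, at 367 (1.78%, with 1.03% of all regions).

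**Figure D5:**
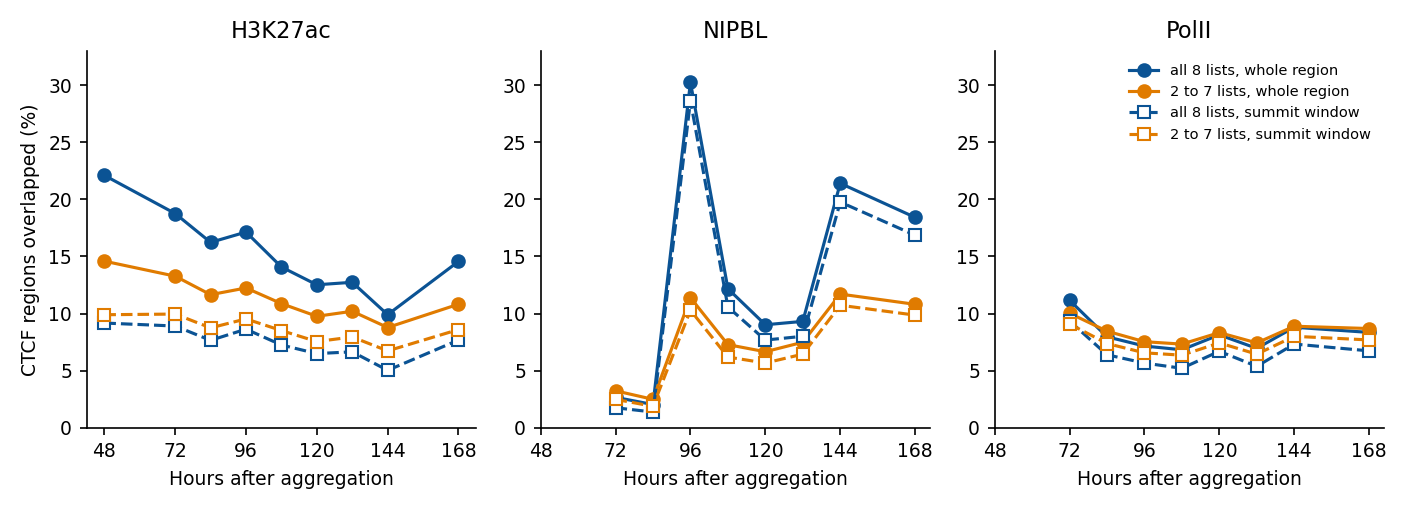
Percent of CTCF regions overlapped by H3K27ac, NIPBL or PolII in 1 wt library per stage, against hours after aggregation, for constant sites (all 8 lists, blue) and variable sites (2 to 7 lists, orange); filled circles count the whole CTCF region and open squares the 100 bases on each side of its summit. For H3K27ac the blue circles lie above the orange ones at every stage and the blue squares below, from 22.1% (whole region) at 48 h to 9.90% at 144 h.

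PolII shares of constant and variable sites lay close together. PolII overlapped 6.83% of constant sites at 108 h to 11.2% at 72 h, with a rho of 0.024 with hours (exact permutation p adjusted 0.977), an r of −0.28 (exact permutation p 0.518) and means of 8.17% at constant and 8.34% at variable sites, with constant sites higher in 1 of 8 libraries. H3K27me3, the Polycomb mark, overlapped 2.02 to 3.94% of constant sites in 6 wt libraries. In the 2 libraries of Del(CBS1-5) at 96 h it overlapped 1.92% and 2.93%. CDX2, a homeodomain factor of the posterior body, overlapped 0.170%, 1.2% and 0.471% in its libraries of 72 h, 96 h and 120 h.

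The constant sites, all on other chromosomes than the HoxD edits, were also read in the mutants. RAD21 at 96 h overlapped 95.8% and 97.5% of them in Del(CBS1) and 92.1%, 94.6% and 94.9% in wt stembryos, a difference of 2.78 points between means of 96.7 ± 1.18% and 93.9 ± 1.54% (SD, n = 2 and n = 3). The exact permutation p was 0.1, two-sided, which is the smallest that 2 libraries against 3 allow. The Del(CBS1) libraries carried the cell line tag and 2 of the 3 wt libraries the cell type tag. RAD21 was in both Del(CBS1) lists and no wt list of 96 h at 82 constant sites (0.398%, with 1.97% of all regions), and the reverse held at 1 site (0.00485%, with 0.0244% of all regions). In Del(CBS1-5) at 120 h, a stage with no wt RAD21 library, the share was 93.7%.

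H3K27ac gave overlapping or list-dependent values in the mutants. At 96 h it overlapped 16.9% and 17.4% of constant sites in Del(CBS1) and 16.6% and 17.8% in Del(CBS1-2), against 18.9%, 16% and 17.1% in wt. At 120 h the shares were 17.1% and 17.3% in Del(CBS1) and 16.4% and 17.2% in Del(CBS1-2), against 14.3%, 13.3% and 12.5% in wt. The mutants were higher at 120 h and within the wt range at 96 h. The 120 h lists of mutants held 56883 to 57950 regions and those of wt 29926 to 49387. At equal length the 120 h shares were 9.62% and 9.43% in Del(CBS1) and 9.18% and 9.68% in Del(CBS1-2), against 8.98%, 8.44% and 10.8% in wt, which overlap. No test was made.

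The Hox clusters on other chromosomes, which were not edited, held 18 constant sites. Hox genes encode the homeodomain proteins that pattern the body axis and are switched on in the order of their places in a cluster. HoxA (162.8 kb) held 7 among its 23 CTCF regions. HoxB (173.9 kb) held 9 among its 29 CTCF regions, and HoxC (115.8 kb) held 2 among 14. RAD21 was in all 16 wt lists at 14 of the 18, beside 69.5% of all constant sites and 23.8% of all regions.

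In HoxA, 3 constant sites lay at gene starts. The site 67 bp from the start of Hoxa5 and that 45 bp from Hoxa7 had RAD21 in all 16 wt lists and matches on the minus strand, and the Hoxa7 site ranked between the 64.2 and 99.9 percentile of RAD21 fold enrichment. H3K27ac was present at the Hoxa5 site in all 9 stages and at the Hoxa7 site in 7, without 132 h and 144 h. The site 337 bp from the start of Hoxa10, a posterior gene of the cluster, had RAD21 in 14 lists and not at 48 h, and H3K27ac only from 120 h to 168 h. These sites differ in how H3K27ac followed the stages, from all stages at Hoxa5 to late stages at Hoxa10.

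The other HoxA sites lay away from starts. A site in an intron of Hoxa3 had RAD21 in 15 lists, without 168 h, at the 13.0 to 57.4 percentile. A site between Hoxa11 and Hoxa13 had RAD21 in all 16 lists at the 90 to 98.9 percentile and no H3K27ac. Between Hoxa13 and Evx1, a homeobox gene at the posterior end, 2 further sites had RAD21 in all 16 lists. The best-scoring positions of these 4 sites were all on the plus strand, and those at the starts of Hoxa5, Hoxa7 and Hoxa10 on the minus strand.

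In HoxB, 5 constant sites lay in the long stretch between Hoxb13 and Hoxb9. The sites 36383 bp and 31000 bp from the start of Hoxb9 had RAD21 in all 16 lists at the 65.3 to 95.2 and 73.4 to 95.4 percentile, with no H3K27ac, NIPBL or PolII in any list. The site 29740 bp from Hoxb13, in masked sequence and without a match, had RAD21 in 15 lists. The sites near Hoxb8 (2941 bp), in an intron of Hoxb6 and at the start of Hoxb5 (228 bp) had RAD21 in all 16. An exon of Hoxb3 carried the site with fewest, in 10 of 16 lists and never above the 35.3 percentile. RAD21 at Hoxb3 was in 1 library of each pair at 72 h, 84 h, 108 h and 132 h, so its absence did not follow the stage.

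In HoxC, both constant sites had RAD21 in all 16 lists. The site 179 bp from the start of Hoxc10 ranked between the 84.1 and 99.8 percentile of RAD21 and had no match, with NIPBL in 5 lists from 96 h and H3K27ac only at 168 h. The site 3006 bp from Hoxc8 ranked between the 60.6 and 97.5 percentile, with NIPBL at 144 h and 168 h. It is the HoxC sequence printed above.

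The stretch from H19 to Igf2 is a textbook imprinted locus, where CTCF binds one parental allele, and these lists do not tell the alleles apart. It held 2 constant sites among 8 CTCF regions in 91.3 kb. The first, at chr7:142580166-142581028, 2197 bp from the start of H19, ranked between the 7.15 and 61.4 percentile of CTCF, had RAD21 in all 16 wt lists and no H3K27ac. The second, at chr7:142609743-142610999, had RAD21 in all 16 lists and H3K27ac in all 9. The pair therefore was alike in cohesin and differed in the active mark.

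Constant sites lay within 1 kb of a start in 2128 of 19993 protein-coding genes off chromosome 2 (10.6%). Among genes of the cohesin and CTCF machinery the count was 7 of 18 (Ctcf, Esco1, Pds5a, Pds5b, Smc3, Stag1 and Stag2), and among imprinted genes 6 of 22 (Grb10, Meg3, Mest, Peg10, Peg13 and Sgce). It was 4 of 35 among genes of the posterior body (Aldh1a2, Fgf4, Lin28a and Mesp1), 5 of 30 among Hox genes and 1 of 19 among pluripotency genes (Tbx3). Listed genes without a protein-coding transcript, such as Peg13, were counted by the start of any transcript, unlike the genes behind the 10.6%. These are counts of small lists and no enrichment was tested.

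The start of Stag1, a cohesin subunit gene, carried a constant site 5 bp away with a match score of 23.5, RAD21 in all 16 wt lists and H3K27ac in 8 of 9. Pds5b, whose product regulates cohesin release, had its site 37 bp away, with RAD21 in all 16 lists and H3K27ac in all 9. Esco1, whose product acetylates the cohesin ring, had a site with RAD21 in 14 lists, in neither list of 72 h. PolII was in all 8 lists at each of these starts.

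Among imprinted genes, a single constant site lay 6 bp from the start of Sgce and 143 bp from that of Peg10, which share a promoter region, with RAD21 in all 16 lists and H3K27ac in all 9. The site 504 bp from the start of Grb10, a growth inhibitor gene, had RAD21 in all 16 lists and NIPBL in all 8, with H3K27ac at 84 h alone and no PolII. The Grb10 and Sgce sites were thus alike in RAD21 and differed in H3K27ac and PolII.

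Among the 4 sites at genes of the posterior body, 2 had RAD21 in all 16 lists. The site 945 bp from the start of Mesp1, a mesoderm transcription factor gene, had RAD21 in 7 of 16 lists and none at 48 h, 72 h or 168 h. The site 467 bp from Aldh1a2, which encodes the enzyme that makes retinoic acid, had RAD21 in 13 lists and none at 48 h. The sites with RAD21 in all 16 lay near Lin28a (947 bp) and Fgf4 (998 bp). At the start of Tbx3, a T-box factor gene, RAD21 was in all 16 lists, H3K27ac in all 9 and NIPBL in all 8.

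RAD21 limited to late or early stages was rare. It was in none of the 5 lists up to 84 h and in all 6 from 132 h at 16 constant sites (0.0776%, with 0.502% of all regions), and the reverse held at 2 (0.00970%, with 0.0937% of all regions). Of the 16, 13 were in promoters, 4 had a stricter match, 14 had H3K27ac, 15 NIPBL and 14 PolII in at least 1 list. Among all constant sites 9.95% were in promoters and 75.9% had a stricter match. H3K27ac was in none of its 9 lists at 66.2% of them, and NIPBL in none of its 8 lists at 59.8%. The late sites were thus mostly gene starts with H3K27ac.

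The Faap100 site, at the start of a DNA repair gene, had RAD21 in 11 lists, all 11 from 96 h on. Its RAD21 fold enrichment ranked between the 17.5 and 71.4 percentile, and H3K27ac was in all 9 lists and PolII in all 8. The site 44603 bp from Tas1r2, between genes, also had RAD21 in all 11 lists from 96 h, with H3K27ac from 84 h on and NIPBL in 6 lists. Further late sites lay at the starts of Ppp2r5b, Thumpd1, Usp22, Adnp2, R3hcc1l and Cab39. The Usp22 site had RAD21 in 7 lists, first at 108 h.

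The early sites had no active mark or nearly none. The site in an exon of Zfp68, in masked sequence, had RAD21 in all 5 lists up to 84 h, in 2 of 3 at 96 h and 1 of 2 at 108 h, and no H3K27ac. The Myh11 site had RAD21 in the same 5 early lists and 1 at 96 h, with H3K27ac at 48 h alone. Both ranked low, at most at the 40.2 and 22.0 percentile of RAD21.

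At 134 constant sites no RAD21 region was found in any of the 19 lists, wt and mutant. In the 16 wt lists alone there were 161 such sites (0.781%, with 24.8% of all regions). Of the 134, 62.7% had a match, 24.6% were masked and 12 were in promoters. Over all constant sites 75.9% had a match, 17.3% were masked and 9.95% were in promoters. The mean CTCF percentile of the 134 had a median of 45.9, against 76.5 over all constant sites. The highest in CTCF lay near Cdsn (69.4 to 96.3 percentile), Ifna4 (58.5 to 91.6), Tlx1 (66.8 to 89.3) and Erc2 (57.7 to 88.0), and had neither H3K27ac nor NIPBL nor PolII in any list. CTCF at these 4 sites was therefore above the middle of every list with no cohesin called. A missing region was below the calling threshold, which is not the same as absence.

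The tightest groups of 5 consecutive constant sites spanned 7299 bp in an intron of Gm47283 on chromosome Y, 12534 bp at Tspan17 on chromosome 13 and 13593 bp at Myh14 on chromosome 7. At Gm47283, 4 of the 5 sites had a match that scored 20.6 on the minus strand, and RAD21 was in 7 to 16 lists. At Tspan17, 2 of the 5 sites had no RAD21 in any wt list while the other 3 had it in all 16. CTCF ranked at the 2.68 to 58.8 and 4.59 to 30.6 percentile at those 2 sites. At the other 3 it ranked at the 34.2 to 58.7, 17.9 to 58.9 and 10.7 to 78.9 percentile. The best-scoring positions of all 5 lay on the plus strand. At Myh14, RAD21 was in all 16 lists at 3 sites, in 13 at another and in none at the remaining site. That last site ranked at the 1.40 to 41.7 percentile of CTCF, and the others at Myh14 between 1.76 and 94.2. Constant sites a few kb apart thus differed in whether RAD21 was called, with low CTCF ranks in some lists at the sites without it.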

How the data were processed

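Peaks of 75 libraries of the 82 samples were used. Per the labels and the methods of the study, the authors trimmed reads with cutadapt 1.16, mapped them to mm10 with Bowtie2 2.3.4.1, filtered them with SAMtools 1.8 and called peaks on each library with MACS2 2.1.1.20160309 without input. The CTCF reads of Ins(2xCBS-d4d8) were mapped to an edited chromosome 2. The deposited lists hold, for each peak, the authors' fold enrichment, a ratio of the height of the summit to its surroundings, the p-value and q-value as −log10, a score and the summit's position. Fold enrichment was ranked within its own list only. Peaks that share a region were merged. Lists were compared by an overlap of at least 1 base, since called regions give presence and not height. The read depth is not recorded, so an absent region may be below threshold.

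Promoters, exons and introns came from GENCODE vM21, and the letters from the GRCm38 reference, whose lower case marks repeats. Shares carry 95% Clopper-Pearson intervals for counting error. Trends over stage means and paired differences used permutation tests, exact below 10 values, adjusted by Benjamini-Hochberg. The study states that some replicates came from different cultures without saying which, so p-values measure the spread between libraries, which may in part be technical. The sites, gene lists and tests were chosen with earlier results of these data known. Named sites follow fixed rules: all in HoxA, HoxB and HoxC; up to 4 of each gene list by distance to a start; up to 8 with late or early RAD21 only, by RAD21 rank; 4 without RAD21, by CTCF rank; the 3 densest stretches. Python 3.11.15, numpy 2.4.6, pandas 2.3.3, scipy 1.17.1 and matplotlib 3.10.9 were used, and the statistics were tested on simulated data. Alternatives were list length, a −log10 q of at least 5, an overlap of 200 bases, other choices of CTCF lists, promoter and match definitions, and leaving out libraries.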

Additional observations from a re-analysis of the deposited data

How the results depend on the processing

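The RAD21 difference between constant and variable sites kept its direction and its call under all 21 alternatives, at 42.9 to 53.9 points, and the number of constant sites ranged from 15487 to 26174. Leaving out each library in turn, the RAD21 trend with hours had a rho of 0.048 to 0.93, the H3K27ac trend −0.95 to −0.71, the PolII trend −0.18 to 0.54, the NIPBL trend 0.32 to 0.82, the NIPBL difference 3.62 to 6.40 points and the trend of RAD21 at promoters 0.61 to 0.82. The RAD21 trend turned negative within the cell type libraries (−0.14) and in replicate 1 alone (−0.26), and with the replicate block its rho was 0.25 (permutation p 0.540). The trend at promoters, which was chosen after seeing the data, had a rho of 0.29 within the cell type libraries and 0.67 with the replicate block (permutation p 0.0163). With the replicate block the Del(CBS1) difference was 3.30 points (exact permutation p 0.5). Numbers 1 and 2 did not order the libraries alike, replicate 2 being 12.4 points lower at 72 h and 11.1 points higher at 84 h. The PolII rho was −0.060 at equal list length, −0.024 with a −log10 q of at least 5 and −0.048 with an overlap of 200 bases. That overlap took the H3K27ac rho to −0.82 (exact permutation p adjusted 0.0431). The NIPBL difference was −0.252 points at equal length and 1.56 with a −log10 q of at least 5. The H3K27ac difference was −1.11 points in the summit windows, an alternative chosen after seeing the data. The promoter share was 16.2% within 2.5 kb and 16.3% with all transcripts, and the match share 75.9% at the stricter threshold. For these alternatives the cause was not tested beyond what their construction fixes. Because regions are called per library without depth, a missing RAD21, NIPBL or H3K27ac region limits presence only, and shares of lists that differ in length are bounded by the equal-length values.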
